A study of Homo sapiens with 6 samples.

Results

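The insulin-like growth factor (IGF) binding proteins IGFBP2 to IGFBP7 and the receptors IGF1R, IGF2R and INSR were followed by their transcripts in BJ fibroblasts, an established human foreskin line, at day 8 of reprogramming towards pluripotency. These 9 genes were taken by symbol from a table of 27788 genes, and all 9 were expressed highly enough to be tested. The cells carried lentiviral vectors with 2 polycistronic constructs, O2S and K2M, for the reprogramming factors OCT4, SOX2, KLF4 and MYC (OSKM), and were sorted by the surface proteins CD13 and CD201 into 3 groups of 2 libraries. Double-negative cells lacked both proteins, CD201-only cells carried CD201 without CD13, and double-positive cells carried both. All groups received the same factors, first serum and later human embryonic stem cell medium, on Matrigel, and no uninfected or unsorted sample was analysed here. Nothing in the labels says whether replicate libraries came from separate cultures, so p-values measure the spread between these libraries, which may be technical.

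IGF1 and IGF2 are secreted growth factors that bind the tyrosine kinase IGF1R, which shares its fold and its downstream adaptors with the insulin receptor INSR. IGF2R is a scavenger that carries IGF2 and mannose 6-phosphate-tagged lysosomal enzymes to the lysosome and does not signal as a kinase. The binding proteins hold the ligands in the medium and the matrix, and so can withhold them from the receptor or bring them to it. IGFBP6 prefers IGF2 to IGF1, IGFBP4 mainly inhibits, IGFBP5 sticks to the matrix of fibroblasts, and IGFBP7 binds IGFs with much lower affinity than the others.

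The 4 binding proteins with the highest transcript levels, IGFBP4, IGFBP5, IGFBP6 and IGFBP7, were lowest in double-negative cells, at 0.378 to 0.493 times their level in double-positive cells. IGFBP2 and the signalling receptor IGF1R went the other way and were higher in both CD13-negative groups. For IGF1R in double-negative cells the change was small. Its call was lost after median-ratio rescaling of the libraries and when some single libraries were left out. IGFBP3 was lowest in CD201-only cells, IGF2R differed by small amounts, and INSR passed no test. In CD201-only cells IGFBP4 did not pass the test against double-positive cells, and IGFBP5, IGFBP6 and IGFBP7 lay between the other groups.

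The promoters of 3 of the genes that were low together in double-negative cells are shown beside that of IGFBP3, a family member with another pattern. Each run is 250 bases before to 50 bases after the RefSeq start (build GRCh38.p14), read 5′ to 3′ on the strand of the gene, at chr17:40443200-40443499 (plus) for IGFBP4, chr2:216695500-216695799 (minus) for IGFBP5, chr12:53097417-53097716 (plus) for IGFBP6 and chr7:45921223-45921522 (minus) for IGFBP3. Capitals mark a match on either strand to a GC box or a TATA box.
IGFBP4: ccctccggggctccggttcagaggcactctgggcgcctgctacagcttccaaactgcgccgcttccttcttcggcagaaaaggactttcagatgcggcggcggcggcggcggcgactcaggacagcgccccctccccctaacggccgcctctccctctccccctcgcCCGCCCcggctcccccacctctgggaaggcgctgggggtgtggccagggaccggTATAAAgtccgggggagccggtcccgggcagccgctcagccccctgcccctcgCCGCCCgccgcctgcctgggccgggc
IGFBP5: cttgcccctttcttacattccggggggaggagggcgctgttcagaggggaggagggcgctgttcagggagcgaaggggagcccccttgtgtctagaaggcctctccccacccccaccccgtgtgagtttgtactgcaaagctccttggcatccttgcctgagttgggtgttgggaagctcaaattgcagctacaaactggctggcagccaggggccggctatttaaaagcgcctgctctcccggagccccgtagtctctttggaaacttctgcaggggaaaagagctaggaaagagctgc
IGFBP6: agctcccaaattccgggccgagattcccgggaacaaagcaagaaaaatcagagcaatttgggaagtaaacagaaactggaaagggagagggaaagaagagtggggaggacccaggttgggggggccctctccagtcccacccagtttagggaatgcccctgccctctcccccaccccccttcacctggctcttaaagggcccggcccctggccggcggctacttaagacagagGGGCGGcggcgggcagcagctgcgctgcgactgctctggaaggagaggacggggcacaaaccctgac
IGFBP3: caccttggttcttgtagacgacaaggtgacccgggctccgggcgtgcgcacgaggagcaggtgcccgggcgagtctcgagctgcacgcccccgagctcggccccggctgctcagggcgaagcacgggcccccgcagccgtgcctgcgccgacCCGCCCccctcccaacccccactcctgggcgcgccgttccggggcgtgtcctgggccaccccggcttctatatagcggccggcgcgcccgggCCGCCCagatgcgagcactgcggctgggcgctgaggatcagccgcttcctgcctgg

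The GC box was searched as the letters GGGCGG and the TATA box as the letters TATAAA. IGFBP4 held 2 GC boxes and 1 TATA box, IGFBP6 held 1 GC box, IGFBP3 held 2 GC boxes, and IGFBP5 held neither motif. The CCAAT box, the E-box spelled CACGTG and the AP-1 motif spelled TGANTCA were searched on both strands too and were in none of these 4 windows. Among 35116 promoter windows of the same length, 45.0% held the GC box, 11.5% the TATA box, 34.6% the CCAAT box, 7.26% this E-box and 7.71% the AP-1 motif. A match is only a run of letters. Variants of these letters were not searched, so a window without a match may still hold a related element. None of the searched motifs was common to the 3 shown promoters of genes that were low together. Promoter entries were found for 8 of the 9 genes, and IGFBP7, which was low with these 3, had none.

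Libraries of a group were far closer to each other than to other groups, with a lowest correlation of 0.992 within a group and a highest of 0.981 between groups, on log2 of FPKM (fragments per kilobase, scaled to library size) plus 1. From the steps between the lowest values, relative depth ran from 0.935 to 1.28 times that of the first double-negative library, and the absolute depth is not known. Replicates of highly expressed genes (over 100 FPKM) varied by a median coefficient of variation of 0.963% to 2.02%, and those of genes at 1 to 10 FPKM by 5.29% to 6.37%. ANPEP, which encodes CD13, averaged 36.0 ± 0.347 FPKM in double-negative, 28.9 ± 0.216 FPKM in CD201-only and 155 ± 3.65 FPKM in double-positive cells (SD, n = 2 per group). PROCR, which encodes CD201, averaged 17.3 ± 0.948 FPKM in double-negative, 47.4 ± 2.34 FPKM in CD201-only and 51.9 ± 0.842 FPKM in double-positive cells. Of 10 fibroblast markers, COL1A1, COL1A2, COL3A1, VIM and THY1 were at 242 FPKM or more in every library. PDGFRA and PDGFRB were at 11.7 FPKM or more, whereas DCN, LUM and FAP were low, at no more than 3.97, 3.58 and 1.37 FPKM.

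Each gene was tested with limma on log2(FPKM + 1), over 12210 genes, and is called here at a Benjamini-Hochberg adjusted p under 0.05. Much of the transcriptome differed between groups, so calls were common. How many of all genes had groups that did not overlap was not counted, so a lack of overlap below only describes a gene's values. Among the 3 groups, 8 of the 9 genes differed by limma's F test, against a background of 73% of all genes. Values of ± are SD over 2 libraries, and log2 changes are given with their standard error (SE). In bulk RNA, fewer expressing cells and less RNA per cell cannot be told apart.

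IGFBP5 was the most abundant of the family in every library. It stood at 946 and 943 FPKM in double-negative cells, 1398 and 1377 FPKM in CD201-only cells, and 1922 and 1912 FPKM in double-positive cells. The groups did not overlap, and the levels formed 3 steps with double-negative cells at the bottom. By mean FPKM it ranked 69 of 12210 tested genes in double-negative cells, 57 in CD201-only cells and 25 in double-positive cells. IGFBP5 fell in double-negative against double-positive cells (log2 change -1.02, SE 0.0186, limma adjusted p = 6.13e-08). It also fell in CD201-only against double-positive cells (log2 change -0.47, SE 0.0186, limma adjusted p = 1.83e-06). Double-negative cells were in turn below CD201-only cells (log2 change -0.55, limma adjusted p = 2.63e-06).

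IGFBP6, the binding protein with a preference for IGF2, had the widest range of the 9 genes on the log2 scale. It stood at 490.5 and 487 FPKM in double-negative cells, 1134 and 1097 FPKM in CD201-only cells, and 1317 and 1272 FPKM in double-positive cells. Both double-negative libraries were well below the other 4, and the CD201-only libraries were below the double-positive ones. IGFBP6 fell in double-negative against double-positive cells (log2 change -1.40, SE 0.0259, limma adjusted p = 6.59e-08). Against CD201-only cells it fell by 1.19 (log2, SE 0.0259, limma adjusted p = 3.97e-07). The step between CD201-only and double-positive cells was smaller, with a log2 change of -0.21 (SE 0.0259, limma adjusted p = 0.000366), which was -0.34 after quantile normalization.

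IGFBP4, a mainly inhibitory binding protein, was lowest in the double-negative libraries. It stood at 231 and 234 FPKM in double-negative cells, 476 and 479 FPKM in CD201-only cells, and 491 and 488 FPKM in double-positive cells. Both CD201-positive groups were well above the double-negative libraries and close to each other, at rank 139 of all tested genes in CD201-only cells and 137 in double-positive cells. IGFBP4 fell in double-negative cells against double-positive cells (log2 change -1.07, SE 0.0202, limma adjusted p = 6.98e-08) and against CD201-only cells (log2 change -1.04, SE 0.0202, limma adjusted p = 2.9e-07). Between CD201-only and double-positive cells the log2 change was -0.035 (SE 0.0202, limma adjusted p = 0.177). That difference was called lower after median-ratio rescaling (log2 change -0.12, limma adjusted p = 0.00314) and after quantile normalization (log2 change -0.077, limma adjusted p = 0.0413).

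IGFBP7, a low-affinity relative that is also known as a secreted product of senescent fibroblasts and of endothelium, was highest in the double-positive libraries. It stood at 301 and 309 FPKM in double-negative cells, 416 and 421 FPKM in CD201-only cells, and 768 and 736 FPKM in double-positive cells. The groups did not overlap, and both CD13-negative groups were well under the double-positive libraries. IGFBP7 fell in double-negative cells by 1.30 (log2, SE 0.0270, limma adjusted p = 1.01e-07) and in CD201-only cells by 0.84 (log2, SE 0.0270, limma adjusted p = 8.19e-07), each against double-positive cells. Double-negative cells were also below CD201-only cells (log2 change -0.46, limma adjusted p = 2.77e-05). Of 8 endothelial markers, PECAM1, CDH5 and ERG did not exceed 0.261 FPKM in any library and VWF reached at most 1.0 FPKM. The other 4 were tested and went different ways in double-negative and CD201-only cells against double-positive cells. CLDN5 (log2 changes -1.34 and -0.58) and TIE1 (-1.33 and -0.33) fell in both groups like IGFBP7, KDR rose in both (1.35 and 0.30), and TEK fell in double-negative cells and rose in CD201-only cells (-0.44 and 0.41). Their part in the IGFBP7 values was not tested. The antisense gene IGFBP7-AS1 did not exceed 0.244 FPKM.

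IGFBP3, the main carrier of IGFs in serum, had an order of its own. It stood at 81.0 and 79.4 FPKM in double-negative cells, 64.3 and 65.4 FPKM in CD201-only cells, and 92.9 and 95.5 FPKM in double-positive cells. The groups did not overlap, and the lowest group was CD201-only, not double-negative. IGFBP3 fell in CD201-only cells (log2 change -0.53, SE 0.0285, limma adjusted p = 6.63e-06) and less in double-negative cells (log2 change -0.23, SE 0.0285, limma adjusted p = 0.000344), each against double-positive cells. After median-ratio rescaling the change in double-negative cells was -0.35. Double-negative cells were higher than CD201-only cells (log2 change 0.30, SE 0.0285, limma adjusted p = 0.00024).

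IGFBP2, a binding protein known from embryonic and tumour tissue, was the one binding protein that rose in both CD13-negative groups. It stood at 28.6 and 27.3 FPKM in double-negative cells, 29.3 and 29.3 FPKM in CD201-only cells, and 21.3 and 20.2 FPKM in double-positive cells. All 4 CD13-negative libraries were above both double-positive libraries. IGFBP2 rose in double-negative cells (log2 change 0.41, SE 0.0424, limma adjusted p = 0.000135) and in CD201-only cells (log2 change 0.48, SE 0.0424, limma adjusted p = 7.77e-05), each against double-positive cells. Between double-negative and CD201-only cells the log2 change was -0.064 (SE 0.0424, limma adjusted p = 0.276). IGFBP2 and IGFBP5 are neighbours on chromosome 2, with no other protein-coding gene between them in RefSeq GRCh38.p14. The ratio of IGFBP5 to IGFBP2 FPKM was 33.0 and 34.5 in double-negative, 47.7 and 47.0 in CD201-only, and 90.1 and 94.5 in double-positive cells, so it was highest where both surface proteins were present.

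**Figure D1:**
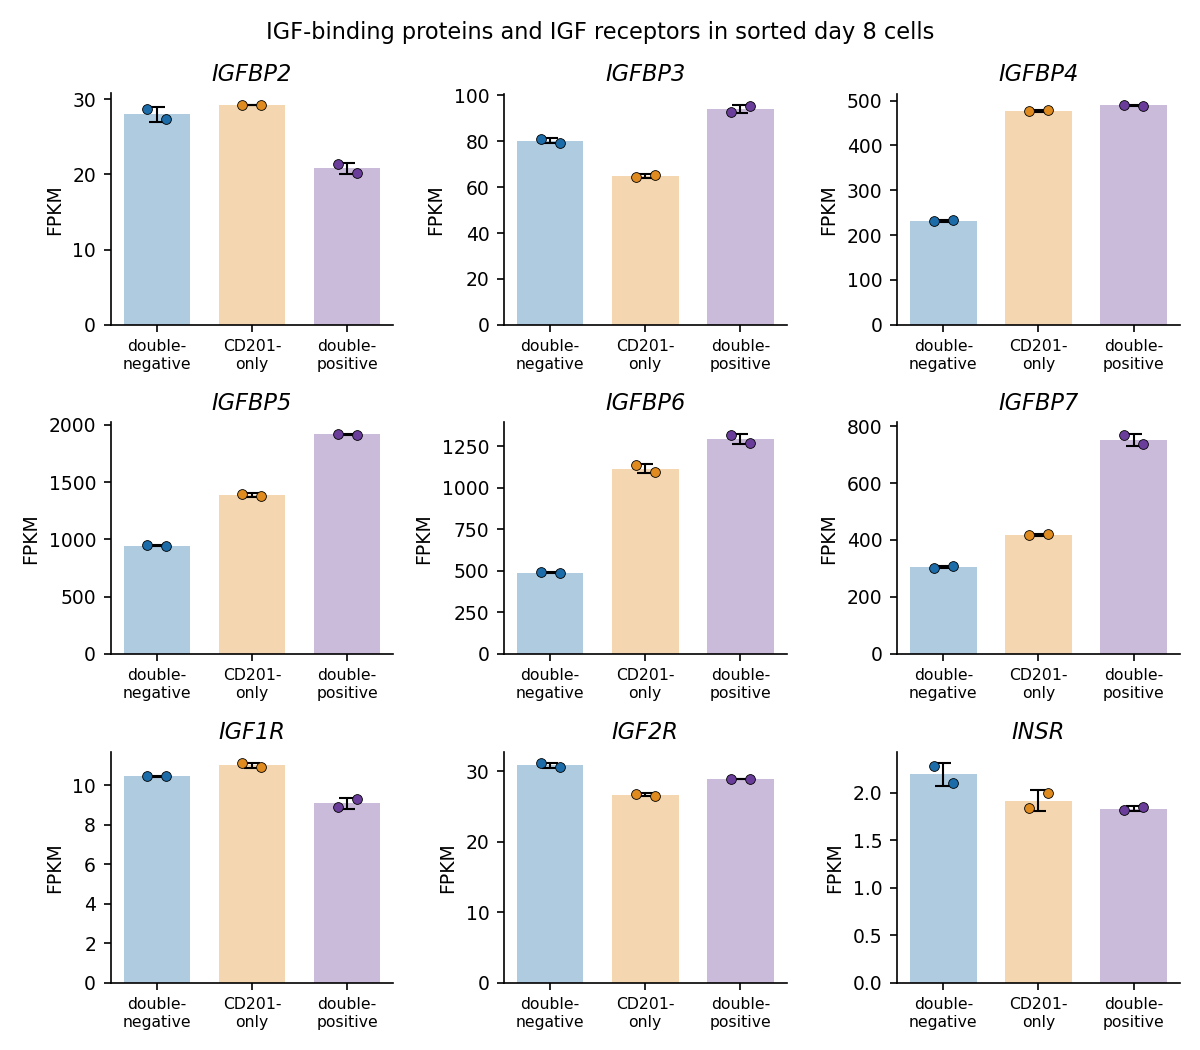
FPKM of the 6 binding protein and 3 receptor genes in the groups double-negative, CD201-only and double-positive, with a bar at the group mean, a point per library and the SD over 2 libraries. IGFBP4, IGFBP5, IGFBP6 and IGFBP7 are lowest in double-negative cells, IGFBP3 is lowest in CD201-only cells, and IGFBP2 and IGF1R are lowest in double-positive cells.

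The signalling receptor IGF1R stood near the middle of all tested genes. It was at 10.5 and 10.5 FPKM in double-negative cells, 11.1 and 10.9 FPKM in CD201-only cells, and 8.90 and 9.29 FPKM in double-positive cells. All 4 CD13-negative libraries were above both double-positive libraries. IGF1R rose in CD201-only cells (log2 change 0.25, SE 0.0484, limma adjusted p = 0.0036) and in double-negative cells (log2 change 0.18, SE 0.0484, limma adjusted p = 0.0123), each against double-positive cells. The double-negative call was lost after median-ratio rescaling (log2 change 0.073, limma adjusted p = 0.226). It was also lost without double-negative replicate 1 (limma adjusted p = 0.0598), without double-negative replicate 2 (limma adjusted p = 0.0558), without double-positive replicate 1 (limma adjusted p = 0.057) or with the double-negative libraries averaged (limma adjusted p = 0.0585). Between double-negative and CD201-only cells IGF1R had a log2 change of -0.067 (SE 0.0484, limma adjusted p = 0.316).

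IGF2R, the scavenger of IGF2, was at 31.2 and 30.6 FPKM in double-negative cells, 26.9 and 26.6 FPKM in CD201-only cells, and 28.9 and 29.0 FPKM in double-positive cells. The double-negative libraries were highest and the CD201-only libraries lowest, and the steps were small. IGF2R was higher in double-negative than in CD201-only cells (log2 change 0.20, SE 0.0327, limma adjusted p = 0.00294). It fell in CD201-only against double-positive cells (log2 change -0.11, SE 0.0327, limma adjusted p = 0.0231), a call lost when any of these 4 libraries was left out, with limma adjusted p from 0.0567 to 0.0967. After median-ratio rescaling that change was -0.19. Set against double-positive cells, double-negative cells had a log2 change of 0.092 (SE 0.0327, limma adjusted p = 0.0409), which is under the median of all genes, 0.11. It turned to -0.027 after median-ratio rescaling (limma adjusted p = 0.518), and the call was lost when any 1 of the 6 libraries was left out, with limma adjusted p from 0.0629 to 0.172.

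INSR was the lowest of the 9 genes, at 2.28 and 2.10 FPKM in double-negative cells, 1.84 and 1.99 FPKM in CD201-only cells, and 1.81 and 1.85 FPKM in double-positive cells. Both double-negative libraries were above the other 4, and the CD201-only and double-positive libraries overlapped. No comparison of INSR was called. Double-negative against double-positive cells gave a log2 change of 0.17 (SE 0.0810, limma adjusted p = 0.0993), on a scale that understates changes at this level. The ratio of the mean FPKM was 1.20. In limma without the variance trend the same change was called (adjusted p = 0.0268). For CD201-only against double-positive cells the log2 change was 0.041 (SE 0.0810, limma adjusted p = 0.688), and in double-negative against CD201-only cells 0.13 (SE 0.0810, limma adjusted p = 0.246). Its A and B splice forms are not separated in a value per gene.

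The receptors kept their order in every library, IGF2R above IGF1R above INSR. FPKM is per transcript length, but a comparison between genes also rests on the annotation and options, which are not known here. IGF1R exceeded INSR by 4.60 and 4.97 times in double-negative, 6.05 and 5.48 times in CD201-only, and 4.91 and 5.02 times in double-positive cells. IGF2R exceeded IGF1R by 2.97 and 2.93 times in double-negative, 2.41 and 2.44 times in CD201-only, and 3.25 and 3.12 times in double-positive cells. The order of the binding proteins by level was IGFBP5, IGFBP6, IGFBP7, IGFBP4, IGFBP3 and IGFBP2 in double-negative and in double-positive cells. In CD201-only cells IGFBP4 stood above IGFBP7. Neighbours in these orders did not overlap between libraries of a group.

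Read together, the 9 genes divided differently in each comparison. In double-negative against double-positive cells, 5 of 9 fell (IGFBP3 to IGFBP7) and 3 of 9 rose (IGFBP2, IGF1R and IGF2R), against 24.5% of all genes called lower and 42.1% called higher. IGFBP4, IGFBP5, IGFBP6 and IGFBP7 were called with a log2 change of at least 1, 4 of 9, where 6.68% of all genes were. After median-ratio rescaling, which put the median of all genes at 0.0035, against 0.11 for the deposited values, 5 of the 9 fell and 1 rose, against 31.9% of all genes called lower and 29.9% called higher. Higher calls were then 48.3% of the called genes, and 63.2% of them without rescaling. In CD201-only against double-positive cells, 5 of 9 fell (IGFBP3, IGFBP5, IGFBP6, IGFBP7 and IGF2R) and 2 of 9 rose (IGFBP2 and IGF1R), against 22.9% lower and 35.8% higher over all genes. The largest of these changes was that of IGFBP7, short of the log2 change of 1 that 4.8% of all genes passed. After rescaling 6 of the 9 fell and 2 rose there, against 28.5% of all genes called lower and 26.4% called higher. Higher calls were then 48.1% of the called genes, and 61.0% of them without rescaling. In double-negative against CD201-only cells, 4 of 9 fell (IGFBP4 to IGFBP7) and 2 of 9 rose (IGFBP3 and IGF2R), against 16.5% lower and 21.5% higher over all genes. There IGFBP4 and IGFBP6 passed a log2 change of 1, as did 2.21% of all genes. Each 2 of these comparisons share the libraries of a group.

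**Figure D2:**
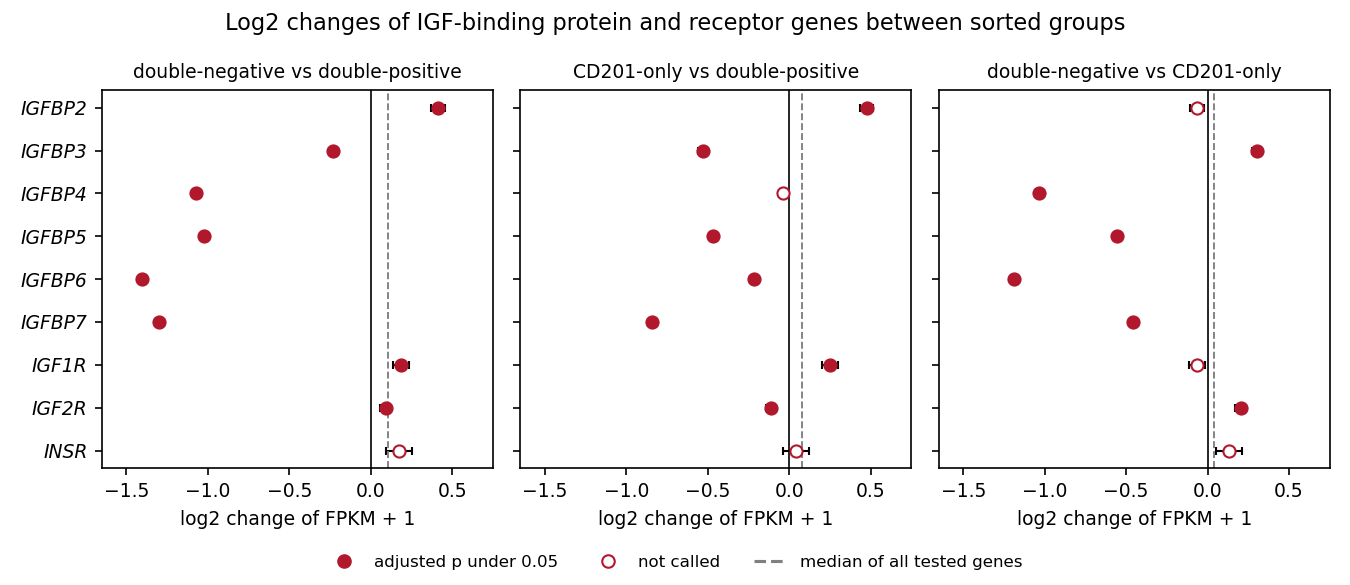
Log2 change of FPKM + 1 with its SE for each binding protein and receptor gene in the 3 comparisons, filled where limma called it and open where it did not, with the median of all tested genes as a dashed line. IGFBP4 and IGFBP6 sit at -1.07 and -1.40 between double-negative and double-positive cells, against -0.035 and -0.21 between CD201-only and double-positive cells, while IGFBP7 is at -1.30, -0.84 and -0.46.

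The summed level of binding protein transcripts was lowest in double-negative cells, and IGFBP5 was its largest portion in every library. The 6 genes summed to 2078 and 2079 FPKM in double-negative cells, 3517 and 3468 FPKM in CD201-only cells, and 4611 and 4523 FPKM in double-positive cells. That was 0.405% and 0.406% of all FPKM in double-negative, 0.675% and 0.666% in CD201-only, and 0.942% and 0.925% in double-positive libraries. Within that sum, IGFBP5 held a mean of 45.4% in double-negative cells, 39.7% in CD201-only cells and 42.0% in double-positive cells. IGFBP6 held 23.5%, 31.9% and 28.3% in the same groups. IGFBP7 held 14.7% in double-negative cells, 12.0% in CD201-only cells and 16.5% in double-positive cells, and IGFBP4 held 11.2%, 13.7% and 10.7%. The minor members IGFBP3, at 3.86%, 1.86% and 2.06%, and IGFBP2, at 1.35%, 0.838% and 0.455%, took their largest shares in double-negative cells. Replicates differed by at most 0.614 percentage points in any share.

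**Figure D3:**
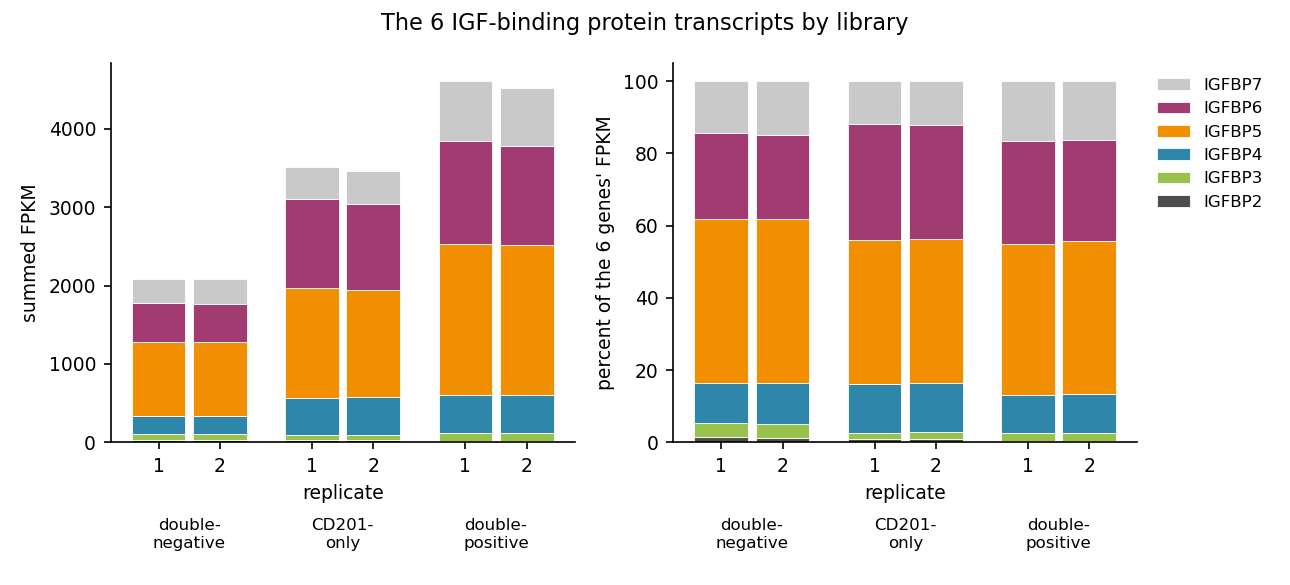
Summed FPKM of the 6 binding protein genes (left) and each gene's percent of that sum (right), with a bar per library of the groups double-negative, CD201-only and double-positive. The sum is 2078 and 2079 FPKM in double-negative cells and 4611 and 4523 FPKM in double-positive cells, and IGFBP5 is the largest portion of every bar.

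Of the ligands, only IGF2 was expressed at a level that could be tested. IGF2 stood at 190 and 189 FPKM in double-negative cells, 460 and 455 FPKM in CD201-only cells, and 551 and 548 FPKM in double-positive cells. It fell in double-negative cells by 1.53 (log2, SE 0.0199, limma adjusted p = 1.9e-08) against double-positive cells and by 1.27 (limma adjusted p = 1.71e-07) against CD201-only cells. Its log2 change was -0.26 in CD201-only against double-positive cells (limma adjusted p = 3.3e-05). IGF1 did not exceed 0.453 FPKM and INS did not exceed 0.12 FPKM in any library. IGF2 overlaps the read-through gene INS-IGF2, listed at no more than 0.136 FPKM, and the antisense IGF2-AS, at no more than 0.94 FPKM.

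The summed binding protein FPKM exceeded that of IGF2 by 10.9 and 11.0 times in double-negative, 7.65 and 7.63 times in CD201-only, and 8.37 and 8.25 times in double-positive cells. IGFBP6 alone kept closer to IGF2, at 2.58 and 2.58 times in double-negative, 2.47 and 2.41 times in CD201-only, and 2.39 and 2.32 times in double-positive cells. H19, an imprinted long noncoding RNA next to IGF2, did not keep such a ratio. H19 averaged 1563 FPKM in double-negative, 4459 FPKM in CD201-only and 2243 FPKM in double-positive cells, so its highest level was in CD201-only cells. It fell in double-negative cells (log2 change -0.52, limma adjusted p = 1.11e-06) and rose in CD201-only cells (log2 change 0.99, limma adjusted p = 1.11e-07), each against double-positive cells.

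Likeness of pattern was measured as the root mean square difference of log2(FPKM + 1) over the 6 libraries, each gene centred on its own mean, against the 8271 genes that averaged at least 5 FPKM. It was taken for the 4 genes whose group means spanned at least 1 log2 unit. The genes most like IGFBP6 were ITGB4, an integrin chain (0.0476), IGF2 (0.0552) and VSIR, an immune checkpoint receptor (0.0587). Those most like IGFBP4 were ENDOD1 (0.0344), S1PR1, a sphingosine phosphate receptor (0.0354), and RFLNA (0.0565). IGFBP5 was closest to FAM129B (0.0142), PDK2, a pyruvate dehydrogenase kinase (0.0246), and BMP1, a procollagen protease (0.0247). IGFBP7 was closest to CNFN (0.0367), IER3, an immediate early gene (0.0379), and CCND1, cyclin D1 (0.0429). Among the binding proteins themselves, IGFBP4 and IGFBP6 differed by 0.137 and IGFBP5 and IGFBP7 by 0.161. IGFBP4 was the gene of rank 14 in likeness to IGFBP6, and IGFBP6 that of rank 41 in likeness to IGFBP4. IGFBP7 was of rank 148 in likeness to IGFBP5, and IGFBP5 of rank 104 in likeness to IGFBP7. All values rest on the same 6 libraries and describe them only.

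The remaining relatives were near 0 or fell in both CD13-negative groups. IGFBP1 did not exceed 0.0412 FPKM, IGFALS, the subunit that completes the serum IGF complex, 0.0674 FPKM, and IGFBPL1 0.299 FPKM, so none of them was tested. INSRR, the insulin receptor-related kinase, did not exceed 0.0101 FPKM. LRP1, an endocytic receptor that also binds IGFBP3, averaged 50.1 ± 0.399 FPKM in double-negative, 65.0 ± 0.00198 FPKM in CD201-only and 95.1 ± 2.58 FPKM in double-positive cells. It fell in both CD13-negative groups against double-positive cells (log2 changes -0.91 and -0.54, limma adjusted p = 6.34e-07 and 7.3e-06). TMEM219, a membrane receptor for IGFBP3, also fell in both (log2 changes -0.50 and -0.55, limma adjusted p = 1.62e-05 and 1.14e-05).

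Proteases that cut IGF-binding proteins, and the inhibitors of those proteases, were mostly lower outside the double-positive group. Of 11 listed genes 7 were tested. In double-negative against double-positive cells 5 fell and 1 rose, with a median of -1.19 where the median of all genes was 0.11 and 24.5% of all genes fell. The gene that rose was STC2 (0.21), a call lost after median-ratio rescaling (log2 change 0.10, limma adjusted p = 0.153) and without double-negative replicate 2 (limma adjusted p = 0.0811). All 7 tested fell in CD201-only against double-positive cells (median -1.36, all genes 0.077), as did 22.9% of all genes. PAPPA, the metalloprotease that cuts IGFBP4 and IGFBP5, was at 1.66 and 1.71 FPKM in double-negative, 0.409 and 0.366 FPKM in CD201-only, and 6.77 and 7.11 FPKM in double-positive cells. Its log2 changes were -1.56 in double-negative and -2.52 in CD201-only cells against double-positive cells (limma adjusted p = 3.72e-06 and 6.84e-07). STC1, an inhibitor of PAPPA, fell beside it (log2 changes -1.19 and -1.88, limma adjusted p = 9.15e-07 and 2.01e-07). ADAM12 (log2 changes -1.69 and -1.98) and HTRA1 (-1.27 and -1.36), proteases reported to cut binding proteins, fell in both groups as well.

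Double-negative and CD201-only cells differed in these genes in the direction opposite to IGFBP4 to IGFBP7. In that comparison 5 of the 7 tested proteases and inhibitors were called higher in double-negative cells, and the log2 changes of all 7 lay above 0, the lowest at 0.024. PAPPA rose by 0.95, STC1 by 0.69 and STC2, another PAPPA inhibitor, by 0.52 on the log2 scale (limma adjusted p = 0.000116, 3.26e-05 and 0.000438). At these low levels the pseudocount of 1 compresses the changes of PAPPA, which were 1.87 here and -3.85 in CD201-only against double-positive cells with a pseudocount of 0.1. Over all genes 21.5% were called higher. CD201-only cells had the lowest PAPPA level and an intermediate IGFBP5 level.

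Adaptors and feedback regulators of the receptors went both ways. Of 14 tested, 6 rose and 7 fell in double-negative against double-positive cells (median -0.031, all genes 0.11), and 3 rose and 6 fell in CD201-only against double-positive cells (median -0.015, all genes 0.077). Over all genes 42.1% rose and 24.5% fell in the first of these comparisons, and 35.8% rose and 22.9% fell in the second. IRS1 and IRS2, the main docking proteins, went in opposite directions. IRS1 was at 13.9 and 13.7 FPKM in double-negative, 24.3 and 24.6 FPKM in CD201-only, and 17.1 and 16.9 FPKM in double-positive cells. IRS2 was at 7.05 and 7.33 FPKM in double-negative, 3.72 and 3.51 FPKM in CD201-only, and 4.62 and 4.58 FPKM in double-positive cells. In double-negative against CD201-only cells IRS1 fell by 0.78 and IRS2 rose by 0.83 on the log2 scale (limma adjusted p = 1.1e-05 and 8.54e-05). GAB1, another docking protein, rose in double-negative against double-positive cells (log2 change 0.88), where DOK1 and SOCS2, a feedback inhibitor, fell (-0.74 and -0.85). SOCS3, also a feedback inhibitor, rose in CD201-only against double-positive cells (0.61), where SHC1 fell (-0.53).

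Of 14 tested genes of the PI3K and AKT step, 6 rose and 5 fell in double-negative against double-positive cells (median 0.097), and 3 rose and 5 fell in CD201-only against double-positive cells (median -0.047). The 6 of 14 that rose in double-negative cells are near the 42.1% of all genes, and the median of the list is near the 0.11 of all genes. Lower calls were 24.5% of all genes there. In CD201-only against double-positive cells 35.8% of all genes rose and 22.9% fell, with a median of 0.077. PIK3IP1, an inhibitor of PI3K, fell in both (log2 changes -1.42 and -1.25, limma adjusted p = 2.38e-06 and 5.27e-06). PHLPP1, a phosphatase of AKT, rose in both (0.42 and 0.69), and its relative PHLPP2 rose in double-negative cells (0.71). Downstream, 9 of 16 tested genes of the TOR and FOXO list rose and 1 fell in double-negative cells (median 0.18, all genes 0.11), and 11 rose and 1 fell in CD201-only cells (median 0.23, all genes 0.077), each against double-positive cells. Among all genes, too, higher calls outnumbered lower ones in both comparisons, at 42.1% and 35.8% of the genes tested against 24.5% and 22.9%. After median-ratio rescaling 29.9% and 26.4% of all genes were called higher, and this list was not counted again. FOXO3 of this list then lost its call in double-negative cells (log2 change 0.087, limma adjusted p = 0.144). FOXO1, a transcription factor that AKT holds out of the nucleus, rose in both CD13-negative groups (log2 changes 1.00 and 0.66, limma adjusted p = 6.23e-05 and 0.00063). RHEB, which activates TOR, rose by 0.36 and 0.26. Of 10 targets of FOXO factors, 3 rose and 5 fell in double-negative cells (median -0.23, all genes 0.11), and 3 rose and 6 fell in CD201-only cells (median -0.24, all genes 0.077). Among those that fell, CITED2 was at -0.95 in double-negative and SOD2 at -1.01 in CD201-only cells. Among those that rose, CDKN1B was at 0.29 in double-negative and 0.46 in CD201-only cells. Over all genes 24.5% fell and 42.1% rose in the first of these comparisons, and 22.9% fell and 35.8% rose in the second.

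Genes of the mannose 6-phosphate route, which IGF2R serves, were mostly lower in both CD13-negative groups. Of 18 tested, 13 fell and 4 rose in double-negative cells (median -0.30, all genes 0.11), and 12 fell and 4 rose in CD201-only cells (median -0.37, all genes 0.077), each against double-positive cells. Of all genes 24.5% and 22.9% fell in these comparisons. The lysosomal proteases CTSB (log2 changes -1.12 and -1.05) and CTSL (-1.18 and -0.84) and the carboxypeptidase CTSA (-0.72 and -0.69) fell in both. M6PR, the other mannose 6-phosphate receptor, had log2 changes of 0.037 and 0.031 (limma adjusted p = 0.574 and 0.659). GNPTAB, which encodes part of the tagging enzyme, rose in double-negative cells by 0.68 against double-positive and by 0.42 against CD201-only cells. GNPTG and NAGPA, also of the tagging step, fell in double-negative (-0.56 and -0.32) and in CD201-only cells (-0.58 and -0.31) against double-positive cells. The RNA-binding proteins IGF2BP1 and IGF2BP3, named for the IGF2 transcript and unrelated to the IGFBP family, rose in double-negative (0.66 and 0.91) and in CD201-only cells (0.68 and 0.28) against double-positive cells.

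**Figure D4:**
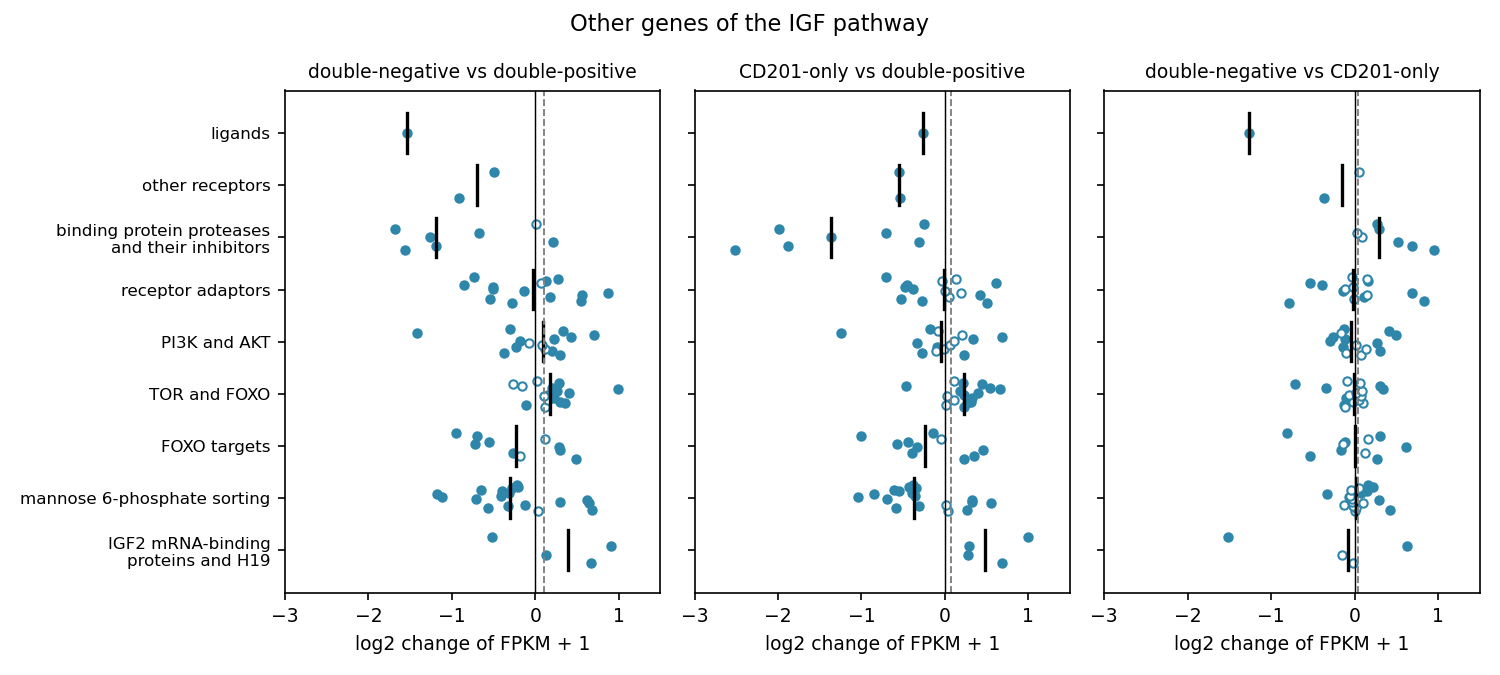
Log2 change of FPKM + 1 of each tested gene of 9 pathway lists in the 3 comparisons, filled where called and open where not, with a black bar at the median of the list and a dashed line at the median of all tested genes. Against double-positive cells IGF2 lies left of 0, and so do the proteases and their inhibitors except STC2 (0.21) and PRSS23 (0.0090) in double-negative cells, whereas all 7 lie right of 0 between double-negative and CD201-only cells.

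Markers of cell identity moved with these groups, and their part in the values above was not tested. Of 10 fibroblast markers 9 were tested. Against double-positive cells 8 fell and 1 rose in double-negative cells and all 9 fell in CD201-only cells. Of all genes, 24.5% fell and 42.1% rose in the first of these comparisons, and 22.9% fell and 35.8% rose in the second. The fibroblast list summed to 4226 and 4227 FPKM in double-negative, 3779 and 3759 FPKM in CD201-only, and 8526 and 8422 FPKM in double-positive cells. In double-negative against CD201-only cells 7 of the 9 tested fibroblast markers were higher and 1 was lower, against 21.5% higher and 16.5% lower over all genes. IGFBP4, IGFBP5, IGFBP6 and IGFBP7 were lower there. Smooth muscle markers (0 higher and 4 lower of 5 tested), keratinocyte markers (0 and 3 of 4) and endothelial markers (1 and 3 of 4) were mostly lower too. Blood markers had 2 higher and 0 lower of 4 tested, and pluripotency markers 6 higher and 1 lower of 8. Of 10 pluripotency markers 8 were tested and all 8 rose in both CD13-negative groups against double-positive cells, where 42.1% and 35.8% of all genes rose. The 10 summed to 207 and 207 FPKM in double-negative, 134 and 135 FPKM in CD201-only, and 62.8 and 65.5 FPKM in double-positive cells. Smooth muscle markers summed to 108 and 107, 144 and 142, and 235 and 230 FPKM, in the order double-negative, CD201-only and double-positive, with MYH11 at no more than 0.104 FPKM. All 5 tested smooth muscle markers fell in double-negative against double-positive cells. In CD201-only against double-positive cells 4 fell and 1 rose (DES, log2 change 0.51). Keratinocyte markers summed to 14.3 and 13.0, 25.0 and 24.7, and 66.9 and 68.8 FPKM in the same order, with KRT1 at no more than 0.0162 FPKM and TP63 at no more than 0.0405 FPKM. KRT14 (log2 changes -3.45 and -3.05) and KRT16 (-2.80 and -1.98) fell in double-negative and CD201-only cells against double-positive cells. KRT5 fell in double-negative cells (-1.10) and rose in CD201-only cells (0.64). Endothelial markers summed to 20.0 and 20.4, 32.7 and 34.8, and 29.4 and 31.8 FPKM, and blood markers to 35.9 and 34.5, 21.4 and 19.5, and 92.6 and 87.6 FPKM, with CD3E at 0. Of 4 tested blood markers, 2 fell (CD14 and CD68) and 1 rose (LYZ, log2 changes 0.44 and 0.44) in both CD13-negative groups against double-positive cells. Of 4 liver markers, which stand for the main source of circulating IGF1 and IGFBP1, none was tested, and ALB and TTR were at 0 in every library.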

How the data were processed

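Poly-A RNA of 6 libraries of BJ cells was sequenced on day 8, from stranded libraries, per the labels' protocols. The authors deposited FPKM values for 27788 gene symbols, 1 column per library with 0 columns left unassigned, made with STAR and Cuffnorm on hg19 (GRCh37), per the submitters' processing notes. Versions, options, annotation, strand setting and scaling: not given in the sources used here. Libraries may have been rescaled by Cuffnorm, and a value per gene sums its transcripts.

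FPKM plus a pseudocount of 1 was taken on the log2 scale, which understates changes of low genes. The 12210 genes averaging at least 1 FPKM were tested in limma 3.58.1 (R 4.3.3) with a variance trend, a coefficient per group over all 6 libraries (3 residual degrees of freedom, prior 3.955), and Benjamini-Hochberg adjustment per comparison. The fit was tested on simulated data. Pathway genes named are all ligands, binding proteins and receptors, and at most 3 called genes with the largest change per list and comparison. M6PR, GNPTG, NAGPA, PRSS23 and the single markers stand outside that rule and were chosen after their values were seen. The members and lists were chosen with earlier results of these data known. Promoters are from RefSeq GRCh38.p14, a build other than that of the files. Tables and plots used Python 3.11.15, pandas 2.3.3, numpy 2.4.6 and matplotlib 3.10.9. The alternatives varied the pseudocount, filter, scaling (median-ratio rescaling divides a library by its median ratio to the geometric mean of each gene, and quantile normalization gives all libraries 1 distribution), replicate block, libraries and variance model.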

Additional observations from a re-analysis of the deposited data

How the results depend on the processing

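Over 27 changes of the 9 genes (3 comparisons each), 21 kept their direction and side of the threshold under every alternative run, among them all changes of IGFBP2, IGFBP3, IGFBP5, IGFBP6 and IGFBP7. The exceptions were IGFBP4 in CD201-only cells, IGF1R in double-negative cells, and IGF2R and INSR in both, each against double-positive cells. Besides the values in the text, the IGF2R call in double-negative cells was lost under quantile normalization (limma adjusted p = 0.129), without the variance trend (0.0731), with only the libraries compared (0.0623) and with the double-negative libraries averaged (0.124). The cause was not tested. The number of the 9 genes called ranged from 6 to 7 (double-negative against double-positive), 6 to 7 (CD201-only against double-positive), 6 to 6 (double-negative against CD201-only) and 8 to 8 (among the groups) when a library was left out. Over all genes these counts were 6851 to 7966, 5969 to 6782, 2888 to 4903 and 7809 to 8444. In double-negative against CD201-only cells 4632 genes were called, 2888 without double-negative replicate 1, 3040 without replicate 2 and 2818 with both averaged, an alternative chosen after seeing the data. With fewer libraries there are fewer degrees of freedom.

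Directions reversed under median-ratio rescaling for IGF2R (-0.027) and SOCS3 (-0.050) in double-negative and INSR (-0.014) in CD201-only against double-positive cells, and for RPS6 (-0.026) in double-negative against CD201-only cells. In that last comparison, leaving out a library moved RPS6 between -0.038 and 0.063, DOK1 between -0.15 and 0.087, SHC1 between -0.028 and 0.018, and IGF2BP1 between -0.060 and 0.021.

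A replicate block ended the IGF2R call in double-negative against double-positive cells (log2 change 0.092, limma adjusted p = 0.0522). With that block, 7 of the 9 genes were called in this comparison, where 41.9% of all genes were called higher and 24.5% lower. In CD201-only against double-positive cells 7 of the 9 were called, against 36% of all genes higher and 22.9% lower. In double-negative against CD201-only cells 6 of the 9 were called, against 21.4% of all genes higher and 16.2% lower. Deviations of same-numbered libraries correlated at 0.0761, -0.0727 and 0.117 between pairs of groups, so the numbers were not taken to pair the samples. Absolute depth is unknown, and INSR, near 2 FPKM, is the gene it limits most.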
